A study of Mus musculus with 9 samples.

Results

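The 39 protein-coding genes of the mouse Hox clusters were chosen by symbol, as every row named Hox, then a, b, c or d, then digits alone, out of 55341 genes in the deposited counts. The rule used no measured value and left out antisense and opposite-strand transcripts. It took 11 genes of the Hoxa cluster on chromosome 6, 10 of the Hoxb cluster on chromosome 11, 9 of the Hoxc cluster on chromosome 15 and 9 of the Hoxd cluster on chromosome 2.

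RNA was measured by Smart-seq2, a full-length polyadenylated RNA protocol, in 9 libraries from small-intestinal crypts of male C57BL/6 mice aged 8 to 12 weeks, and the series asks what loss of PCGF6 does in adult intestinal epithelium. AhCre Pcgf6 knockout (KO, n = 2) and AhCre wild type (WT, n = 2) mice had received beta-naphthoflavone (BNF), which switches on a Cre under a Cyp1a promoter, and Villin-CreERT2 KO (n = 2) and Villin-CreERT2 WT (n = 3) mice had received tamoxifen, which releases a Cre expressed in the intestinal epithelium. Each driver has its own inducing agent, so driver and agent cannot be told apart, and the labels do not describe the Pcgf6 alleles beyond WT and KO. Whether the WT mice carried a Cre is not stated either, so loss of Pcgf6 and Cre activity cannot be told apart between KO and WT. The titles place collection 15 days after induction, whereas a second description line and the design text give 7 days. Replicates are not said to be separate animals, so the p-values measure the spread between these libraries, which may be technical.

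Hox genes encode homeodomain transcription factors that lie in clusters, and along the embryo they are switched on in the order in which they stand on the chromosome, so that genes at one end of a cluster mark anterior levels and genes at the other end posterior levels. Genes at the same place in different clusters are paralogues and carry the same number. In the embryo Polycomb complexes hold Hox clusters silent where they are not used, Trithorax proteins keep them active, and retinoic acid and CDX factors help to open them, while in the adult gut some Hox genes keep a level that depends on the position along the intestine. PCGF6 is a subunit of the variant Polycomb repressive complex PRC1.6, which also holds MGA and MAX, binders of the letters CACGTG, and E2F6, a binder of sites with the letters GCGGGA.

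Total counts were 9263993 to 12377921 in the AhCre libraries and 6455098 to 8339149 in the Villin libraries. The AhCre libraries had counts in 61.06% to 70.17% of all genes and the Villin libraries in 39.86% to 53.76%. Pcgf6 had 89 and 68 counts in AhCre KO, against 219 and 136 in AhCre WT, and 15 and 16 counts in Villin KO, against 60, 99 and 49 in Villin WT, so KO libraries were lower in both drivers. Its log2 fold change was -0.89 ± 0.40 (SE; adjusted p = 1, edgeR) in AhCre and -1.99 ± 0.42 (adjusted p = 0.022, edgeR) in Villin. In fits of a single line the calls changed places, with -0.88 (adjusted p = 0.0357, edgeR) in AhCre and -1.85 (adjusted p = 0.136, edgeR) in Villin, and the Villin call was also lost when Villin KO 1, Villin WT 1 or either AhCre WT library was left out (adjusted p = 0.0513 to 0.0748, edgeR). All 9 epithelial markers were detected, with a summed level of 8511 to 8844 CPM (counts scaled to the size of the library) in AhCre KO, 6976 to 7488 CPM in AhCre WT, 14670 to 18970 CPM in Villin KO and 9984 to 12860 CPM in Villin WT.

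Hox transcripts were scarce in the crypts and, with all libraries pooled, came mainly from the middle of the Hoxb cluster. The 39 genes had 1006 counts over all 9 libraries, of which 598 (59.44%) fell on Hoxb, 279 (27.73%) on Hoxa, 74 (7.36%) on Hoxc and 55 (5.47%) on Hoxd. Every Hox gene had at least 1 count somewhere, but only Hoxa3, Hoxb4, Hoxb7 and Hoxb9 had counts in all 9 libraries, and 20 genes had 10 counts or fewer over the 9. The median over members of the mean level was 0.127 CPM, and the highest mean level was the 2.69 CPM of Hoxb7. The floor of 3 counts stood at 0.194 to 0.615 CPM per library, so most members lay at or under it in most libraries, and a level of 0 means that the gene was not detectable at this depth.

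Per kilobase of exon, Hoxb7 had the highest mean level over the 9 libraries, at 1.74 CPM per kb. Hoxb9 followed at 0.870, Hoxb6 at 0.493, Hoxb4 at 0.233 and Hoxa3 at 0.224 CPM per kb. This order is that of the pooled libraries. In AhCre KO the mean of Hoxb9 was above that of Hoxb7, at 1.80 and 1.46 CPM per kb, while Hoxb7 was above Hoxb9 in AhCre WT, at 0.549 and 0.459, and in Villin WT, at 3.50 and 0.936 CPM per kb. The paralogue groups 4 to 9 of Hoxb held 549 counts, against 36 for its groups 1 to 3 and 13 for Hoxb13, the gene at its posterior end. In Hoxa, Hoxa3 had 115 counts, the groups 4 to 9 held 111 and the groups 10 to 13 held 27. The share of the middle Hoxb genes differed widely between groups, with 236 of 362 Hox counts in AhCre KO, against 100 of 260 in AhCre WT, and 28 of 119 in Villin KO, against 185 of 265 in Villin WT. In Villin KO the Hoxa cluster held more, at 78 counts. Neither Hoxa13 nor Hoxd13, posterior genes known for their part in the hindgut and the digits, had more than 3 counts over all libraries.

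**Figure D1:**
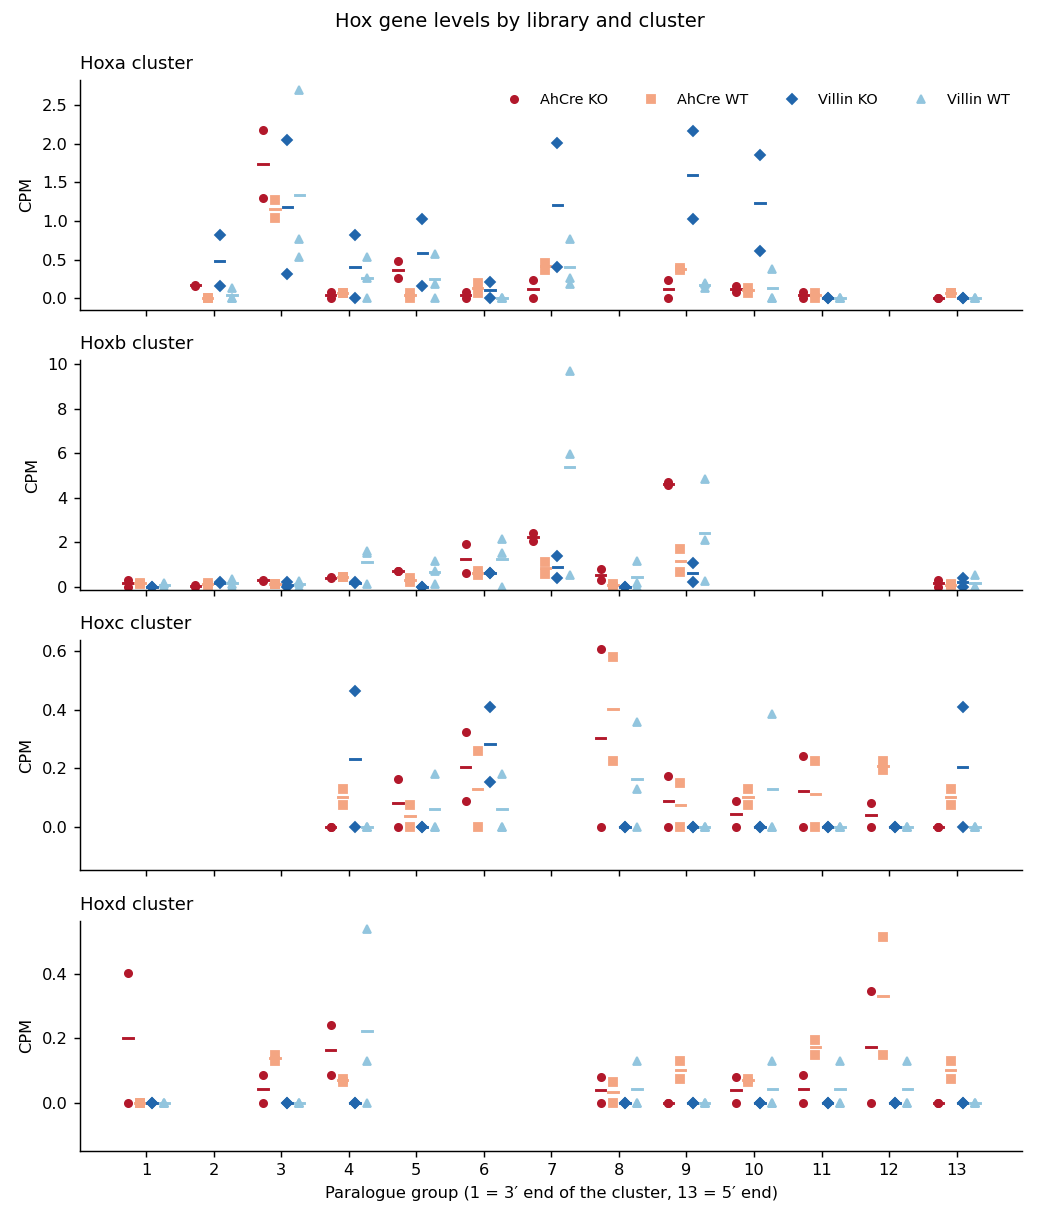
Level of the Hox genes reported singly (CPM, y axis) by paralogue group (x axis), with a panel per cluster; each point is a library and each line a group mean. The y axes differ: Hoxb7 and Hoxb9 reach 9.71 and 4.85 CPM in Villin WT, while no Hoxc or Hoxd gene passes 9 counts in any library.

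The Hoxb genes of paralogue groups 4 to 9 are neighbours on the plus strand of chromosome 11 (GRCm38). They run from Hoxb9, at chr11:96271457-96276595, past Hoxb8, Hoxb7 at chr11:96286623-96290162, Hoxb6 at chr11:96292476-96301569 and Hoxb5, to Hoxb4 at chr11:96318267-96321638. Of the 39 members, 22 matched the RefSeq promoter table (GRCm38.p6), with 24 promoters of 300 bases each. The 2 promoters of this block that the table held are shown because the block carries most of the pooled Hox counts, and that of Hoxa9 because Hoxa9 lies in the stretch of Hoxa with the highest KO levels in Villin. Hoxb9, Hoxb7, Hoxb6 and Hoxb5 had no entry. Each runs 5′ to 3′ on the strand of its gene, from 250 bases before to 50 bases after the start, and capitals mark the letters TTTAT or, on the other strand, ATAAA, which are part of the sites that CDX factors bind.
Hoxb8, chr11:96281655-96281954, plus strand: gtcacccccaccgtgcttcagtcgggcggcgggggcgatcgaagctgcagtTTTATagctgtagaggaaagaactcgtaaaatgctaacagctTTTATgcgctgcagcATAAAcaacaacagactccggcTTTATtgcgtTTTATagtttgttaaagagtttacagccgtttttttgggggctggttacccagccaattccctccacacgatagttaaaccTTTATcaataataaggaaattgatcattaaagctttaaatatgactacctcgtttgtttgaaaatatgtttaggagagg
Hoxb4, chr11:96318017-96318316, plus strand: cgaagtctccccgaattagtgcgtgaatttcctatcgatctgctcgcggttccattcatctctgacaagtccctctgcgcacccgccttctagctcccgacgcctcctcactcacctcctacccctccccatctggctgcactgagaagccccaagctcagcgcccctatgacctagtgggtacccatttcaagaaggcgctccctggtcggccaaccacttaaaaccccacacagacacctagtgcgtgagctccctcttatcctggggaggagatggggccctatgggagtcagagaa
Hoxa9, chr6:52227321-52227620, minus strand: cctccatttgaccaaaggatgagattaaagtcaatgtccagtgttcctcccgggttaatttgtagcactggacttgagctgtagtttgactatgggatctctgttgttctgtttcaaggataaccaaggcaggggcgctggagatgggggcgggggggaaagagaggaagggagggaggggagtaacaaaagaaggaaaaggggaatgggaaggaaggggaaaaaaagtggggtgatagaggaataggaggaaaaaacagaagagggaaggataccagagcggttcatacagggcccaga

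The Hoxb8 promoter held 6 matches to TTTAT on either strand, and those of Hoxb4 and Hoxa9 held none. Cdx proteins are known to act on Hoxb8 in the mouse embryo, yet here the match is a description of letters, not of a site. TTTAT or its complement stood in 9 of the 24 Hox promoters (37.5%), against 13143 of all 32851 promoters. CACGTG, which reads the same on both strands, stood in 5 (20.8%), against 7.2% of all. These were promoters of Hoxd13, Hoxd11, Hoxd10, Hoxd4 and Hoxd1. No Hoxa, Hoxb or Hoxc promoter among the 24 held it. Of Hoxb the 24 included only Hoxb8, Hoxb4 and Hoxb1, and of Hoxc only Hoxc4, so its absence there says little about these clusters. GCGGGA, or TCCCGC on the other strand, stood in 6 of the 24, against 20.0% of all. The median Hox promoter had 57.7% GC and 14.5 CpG dinucleotides, against 52.7% and 7.0 over all promoters.

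In the AhCre line the middle Hoxb genes were mostly higher in KO crypts, by 2-fold to 4-fold for the genes with most counts, and in the Villin line the same genes were mostly low in KO crypts and scattered widely among WT crypts. Neither pattern reached an adjusted p under 0.05 for any gene in the fit of all 9 libraries. Summed over Hoxb4 to Hoxb9, the level was 10.5 and 9.19 CPM in AhCre KO, against 3.42 and 3.51 CPM in AhCre WT. In the Villin line the same sum was 1.43 and 3.24 CPM in KO, against 19.2, 1.03 and 13.5 CPM in WT. The AhCre groups were apart, whereas Villin WT 2 lay below both Villin KO libraries.

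Hoxb9, the most posterior gene of the block, had 58 and 53 counts in AhCre KO, or 4.69 and 4.60 CPM, against 10 and 23 counts in AhCre WT, or 0.646 and 1.72 CPM. Both KO libraries stood above both WT libraries, by more than the spread within either group. The log2 fold change was 1.97 ± 0.91 (SE; adjusted p = 1, edgeR). In Villin, Hoxb9 had 1 and 7 counts in KO, or 0.205 and 1.08 CPM, against 27, 2 and 11 counts in WT, or 4.85, 0.257 and 2.12 CPM. Villin WT 2 fell between the KO libraries, so the groups overlapped. The log2 fold change was -1.77 ± 1.03 (SE; adjusted p = 0.295, edgeR).

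Hoxb7 had 30 and 24 counts in AhCre KO, or 2.43 and 2.08 CPM, against 17 and 8 counts in AhCre WT, or 1.10 and 0.597 CPM. Again both KO libraries stood above both WT libraries, with a log2 fold change of 1.39 ± 0.95 (SE; adjusted p = 1, edgeR). In Villin, Hoxb7 had 2 and 9 counts in KO, or 0.410 and 1.39 CPM, against 54, 4 and 31 counts in WT, or 9.71, 0.513 and 5.97 CPM. Villin WT 1 and WT 3 were the highest of all 9 libraries for Hoxb7, and WT 2 lay between the KO libraries. The log2 fold change was -2.49 ± 0.99 (SE; adjusted p = 0.137, edgeR). Without Villin WT 2 the gene was called, at -2.94 (adjusted p = 0.0410, edgeR), where 4.63% of all genes were called.

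Hoxb6 had 24 and 7 counts in AhCre KO, against 11 and 7 counts in AhCre WT. In CPM these were 1.94 and 0.607 in KO, against 0.710 and 0.522 in WT, so only AhCre KO 1 stood out and the groups overlapped. Its log2 fold change was 1.03 ± 0.99 (SE, edgeR), and -0.022 without that library. In Villin it had 3 and 4 counts in KO, or 0.615 and 0.617 CPM, against 12, 0 and 8 counts in WT, or 2.16, 0 and 1.54 CPM. The KO libraries lay between Villin WT 2 and the other two WT libraries, at a log2 fold change of -0.91 ± 1.12 (SE; adjusted p = 0.639, edgeR).

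Hoxb4, known from work on blood stem cell self-renewal, had 5 and 5 counts in AhCre KO, or 0.404 and 0.434 CPM, against 7 and 6 counts in AhCre WT, or 0.452 and 0.448 CPM. It was the only gene of the block whose mean was not higher in AhCre KO, with a log2 fold change of -0.10 ± 0.92 (SE, edgeR). In Villin it had 1 and 1 counts in KO, or 0.205 and 0.154 CPM, against 9, 1 and 8 counts in WT, or 1.62, 0.128 and 1.54 CPM. Villin WT 2 was below both KO libraries, and the log2 fold change was -2.47 ± 1.15 (SE; adjusted p = 0.196, edgeR).

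Hoxb8, known for its part in myeloid progenitors, and its neighbour Hoxb5 were too low to be tested in that fit. Hoxb5 had 9 and 8 counts in AhCre KO, against 6 and 3 in AhCre WT, and 0 and 0 counts in Villin KO, against 4, 1 and 6 in Villin WT. The group sums gave a KO to WT ratio of 2.28 in AhCre (95% interval 0.963 to 5.82). In Villin KO the level was 2.25-fold lower with 3 counts put in place of its 0. Hoxb8 had 4 and 9 counts in AhCre KO, against 2 and 0 in AhCre WT, and 0 and 0 counts in Villin KO, against 1, 0 and 6 in Villin WT. Its ratio in AhCre was 7.86 (95% interval 1.78 to 71.8), and with 3 counts in place of 0 it was 1.43-fold lower in Villin KO. A fold with 3 counts over the group in place of 0 takes the other group's counts as exact. It has no interval, is not a lower limit and does not exclude an equal level. The exact intervals of the ratios cover counting error only, not the spread between libraries.

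**Figure D2:**
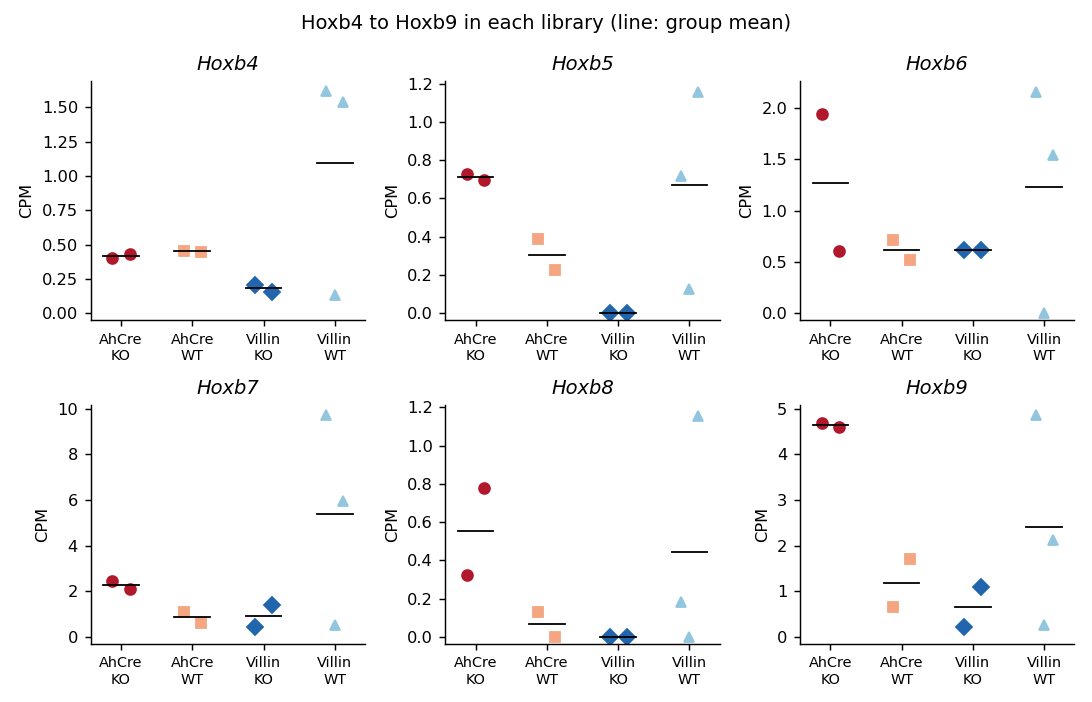
Level (CPM, y axis) of Hoxb4 to Hoxb9 in each library, by group (x axis); points are libraries and lines group means. In AhCre both KO libraries lie above both WT libraries for Hoxb5, Hoxb7, Hoxb8 and Hoxb9, an order held by 23.4% of all genes tested. In Villin the WT libraries spread from 0.513 to 9.71 CPM for Hoxb7.

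Only 5 of the 39 Hox genes passed the filter on low counts and were tested: Hoxa3, Hoxb4, Hoxb6, Hoxb7 and Hoxb9. In AhCre, edgeR called 0 of the 5, against 0.00615% of all 16250 genes tested, and 0 had an unadjusted p under 0.05, against 3.53% of all. In Villin it called 0 of the 5, against 6.21% of all, and Hoxb7 alone had an unadjusted p under 0.05, against 26.1% of all. For the mean KO effect of both drivers it called 0 of the 5, against 1.17% of all, with 0 at an unadjusted p under 0.05. DESeq2 gave an adjusted p to 3 of the 5 in AhCre, 4 in Villin and 4 for the mean and called 0 of these, against 0.52%, 10.9% and 2.86% of the genes to which it gave one. Limma-voom called 0 of the 5, against 0.00615%, 3.95% and 0.732%.

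By order of libraries, both KO libraries stood above both WT libraries for Hoxa3, Hoxb7 and Hoxb9 in AhCre, and below them for Hoxb4. Over all genes tested, 23.4% stood above and 25.1% below in that line, so such an order is common. In Villin all 5 genes overlapped, where 14.5% of all genes had both KO libraries above all WT libraries and 19.8% below. The median log2 fold change of the 5 was 1.03 in AhCre, against -0.0048 over all genes, and -1.77 in Villin, against -0.18 over all genes. The 5 passed the filter through the groups in which they were high, so these medians describe them and do not stand for the 39.

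**Figure D3:**
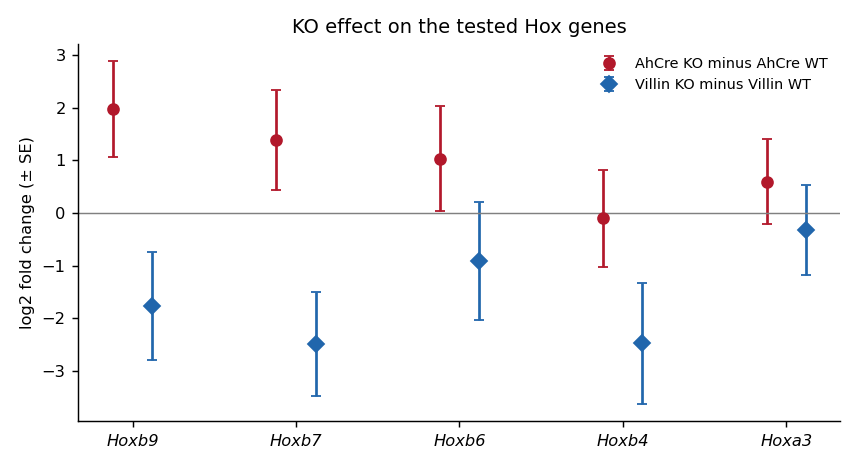
KO minus WT log2 fold change (y axis) of the 5 Hox genes tested, in AhCre and in Villin; bars are ± SE from the edgeR fit of all 9 libraries. In AhCre 4 of the 5 lie above 0 and in Villin all 5 lie below, and none was called in either line.

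In a fit of the 4 AhCre libraries alone, which takes its spread from that line only, Hoxb9 was called at a log2 fold change of 2.02 (adjusted p = 0.00343, edgeR), higher in both KO libraries. That fit called 6.43% of 16257 genes. Its spread rests on 2 libraries per group, whereas the fit of all 9 libraries takes 1 estimate of the spread from both lines.

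Whether the lines differ was tested by taking the Villin KO effect from the AhCre KO effect. This difference was 3.74 ± 1.37 (SE; adjusted p = 0.233, edgeR) on the log2 scale for Hoxb9 and 3.88 ± 1.37 (SE; adjusted p = 0.219, edgeR) for Hoxb7. For Hoxb4 it was 2.37 ± 1.51 (adjusted p = 0.460), for Hoxb6 1.94 ± 1.5 (adjusted p = 0.544) and for Hoxa3 0.92 ± 1.17 (adjusted p = 0.732). None was called, against 0.0738% of all genes, and 2 of the 5 had an unadjusted p under 0.05, against 15.9% of all. DESeq2 called 0 of the 3 to which it gave an adjusted p, against 2.63% of genes, and limma-voom 0 of the 5, against 0.0677%. With no filter on low counts, which tested 46857 genes and called 0.726%, both Hoxb7 (3.93, adjusted p = 0.0178, edgeR) and Hoxb9 (3.79, adjusted p = 0.0347, edgeR) were called.

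Between the WT groups, Hoxb7 was lower in AhCre than in Villin, at 1.10 and 0.597 CPM, against 9.71, 0.513 and 5.97 CPM. The groups overlapped through Villin WT 2, and the log2 fold change was -2.62 ± 0.92 (SE; adjusted p = 0.0902, edgeR). Of the 5 Hox genes tested edgeR called 0, against 7.58% of all genes, and Hoxb7 alone had an unadjusted p under 0.05, against 29.3% of all. DESeq2 called Hoxb7 at -2.61 (adjusted p = 0.0267) with 13.6% of all genes, and limma-voom called 0 of the 5 with 9.1% of all. Called it was too by edgeR without Villin WT 2, at -3.14 (adjusted p = 0.0118; 18.8% of all genes), without both Villin WT 2 and Villin KO 1 (adjusted p = 0.00257; 29.8%) and with no low-count filter, at -2.59 (adjusted p = 0.00514; 4.89%). The other tested genes ranged from -1.19 for Hoxb4 to -0.28 for Hoxa3, with adjusted p of 0.362 to 0.833 (edgeR).

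The Hoxa cluster differed from Hoxb, in that Villin KO crypts were high in Hoxa9 and Hoxa10 and Villin KO 2 also in Hoxa7. The summed level of the 11 genes was 2.98 ± 1.27 CPM in AhCre KO and 2.67 ± 0.0263 CPM in AhCre WT (SD, n = 2 each). In Villin it was 6.90 ± 0.380 CPM in KO (SD, n = 2) and 2.7 ± 1.0 CPM in WT (SD, n = 3), a difference of 4.20 CPM that was 2.46 CPM when scaled by total counts. The Hoxb sum ran the opposite way in Villin, at 2.82 ± 0.806 CPM in KO (SD, n = 2) and 11.8 ± 9.0 CPM in WT (SD, n = 3), and in AhCre it was 10.5 ± 1.49 CPM in KO and 4.01 ± 0.0817 CPM in WT (SD, n = 2 each).

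Hoxa9, known for its part in blood progenitors, had 5 and 14 counts in Villin KO, against 1, 1 and 1 in Villin WT, and 3 and 0 counts in AhCre KO, against 6 and 5 in AhCre WT. In Villin both KO libraries stood above every WT library, at 1.02 and 2.16 CPM in KO, against 0.180, 0.128 and 0.193 CPM in WT. This order held for 14.5% of all genes tested, which have more counts, and was not counted among genes as low as Hoxa9. The group ratio was 10.3 in Villin (95% interval 3.04 to 54.5) and 0.330 in AhCre (0.0591 to 1.25). Hoxa9 did not pass the filter; with no filter it was called in Villin, at a log2 fold change of 3.21 (adjusted p = 0.0321, edgeR, higher in 2 of 2 KO libraries), where 3.4% of 46857 genes were called, Hoxb7 among them (-2.50, adjusted p = 0.0205, edgeR).

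Its neighbours Hoxa10 and Hoxa7 were carried more by a single library. Hoxa10 had 3 and 12 counts in Villin KO, against 0, 0 and 2 in Villin WT, a ratio of 12.2 (95% interval 2.85 to 110.0), with both KO libraries above all WT libraries. Hoxa7 had 2 and 13 counts in Villin KO, against 1, 2 and 4 in Villin WT, a ratio of 3.50 (95% interval 1.34 to 10.1), and only KO 2 stood above WT. Summed over these 3 genes, Villin KO 2 had 6.02 CPM and Villin KO 1 2.05 CPM, while the Villin WT libraries had 0.360, 0.385 and 1.35 CPM. In AhCre the sum was 0.647 and 0.0867 CPM in KO, against 0.969 and 0.820 CPM in WT, so the KO libraries were below.

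Hoxa3, known for the patterning of the pharynx, was the only Hoxa gene tested. It had 27 and 15 counts in AhCre KO, or 2.18 and 1.30 CPM, against 16 and 17 counts in AhCre WT, or 1.03 and 1.27 CPM. In Villin it had 10 and 2 counts in KO, or 2.05 and 0.309 CPM, against 3, 21 and 4 counts in WT, or 0.539, 2.69 and 0.771 CPM. Here Villin WT 2, the library lowest in the Hoxb block, was the highest. The log2 fold change was 0.60 ± 0.80 (SE) in AhCre and -0.32 ± 0.86 (SE; adjusted p = 0.844, edgeR) in Villin, and in Villin it took the other sign, 0.86, without WT 2. The protocol does not mark strand, and 27.1% of the exon bases of Hoxa3 are shared with 5 other annotated genes, Hoxaas2 and Hoxaas3 among them, so their reads cannot be told apart. Hoxaas3, an antisense transcript of this stretch, had 17 and 23 counts in AhCre KO, against 15 and 12 in AhCre WT, and 36 and 7 counts in Villin KO, against 24, 17 and 3 in Villin WT. Among the other genes named here, Hoxa7 shares 20.4%, Hoxb5 3.6% and Hoxa9 1.5% of its exon bases, and Hoxb4, Hoxb6, Hoxb7, Hoxb8, Hoxb9 and Hoxa10 share none.

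The other anterior and middle Hoxa genes were near the floor. Hoxa5, which in the mouse takes part in maturation of the gut epithelium, had 6 and 3 counts in AhCre KO, against 0 and 1 in AhCre WT, a ratio of 10.9 (95% interval 1.51 to 477.0). In Villin it had 5 and 1 counts in KO, against 1, 0 and 3 in WT, a ratio of 2.45 (0.581 to 11.8). Hoxa2 had 2 and 2 counts in AhCre KO, against 0 and 0 in AhCre WT, 1.61-fold higher with 3 counts in place of 0, which does not exclude an equal level. In Villin it had 4 and 1 counts in KO, against 0, 1 and 0 in WT, a ratio of 8.16 (0.913 to 386.0). On these few counts its KO libraries stood above all WT libraries in both lines. Over all genes tested, which have more counts, 23.4% stood so in AhCre and 14.5% in Villin. How common this order is among genes with so few counts was not counted. With no low-count filter its mean KO effect was 3.28 on the log2 scale (adjusted p = 0.294, edgeR) and was not called. Hoxa4, Hoxa6, Hoxa11 and Hoxa13 had at most 4 counts in any library, and every ratio that could be formed for them had an interval that held 1. The same holds for Hoxb1, Hoxb2, Hoxb3 and Hoxb13, with at most 4 counts in a library.

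The Hoxc and Hoxd clusters were near silent, and no member was tested. Their 18 genes had 38 counts in AhCre KO, spread over 14 genes, against 67 counts over 17 genes in AhCre WT. In Villin they had 8 counts over 3 genes in KO, against 16 counts over 9 genes in WT. The Hoxc sum was 0.881 ± 0.103 CPM in AhCre KO and 1.27 ± 0.214 CPM in AhCre WT (SD, n = 2 each), and 0.718 ± 0.143 CPM in Villin KO (SD, n = 2) and 0.411 ± 0.370 CPM in Villin WT (SD, n = 3). No Hoxd gene had a count in either Villin KO library, while the Hoxd sum was 0.394 ± 0.345 CPM in Villin WT (SD, n = 3). In AhCre the Hoxd sum was 0.708 ± 0.142 CPM in KO and 1.02 ± 0.386 CPM in WT (SD, n = 2 each).

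Among single genes of these clusters, Hoxc8 had the most counts, 0 and 7 in AhCre KO, against 9 and 3 in AhCre WT, and 0 and 0 in Villin KO, against 2, 1 and 0 in Villin WT. Hoxd12 had 0 and 4 counts in AhCre KO, against 8 and 2 in AhCre WT, and a single count in the Villin libraries, in WT 2. Neither gene separated the groups in either line. Hoxd1, the anterior end of its cluster, had all of its 5 counts in AhCre KO 1 and 0 counts in AhCre KO 2. With 3 counts in place of the 0 of AhCre WT it was 2.02-fold higher in KO. By order alone, both AhCre KO libraries stood below both AhCre WT libraries for Hoxc4, Hoxc12, Hoxc13, Hoxd3, Hoxd9, Hoxd11 and Hoxd13 and above them for Hoxd4, each on 10 counts or fewer over the 9 libraries. The shares of all tested genes below and above in this way, 25.1% and 23.4%, refer to genes with more counts. The share among genes with so few counts was not counted, so these orders are no result about the genes.

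Detection of Hoxc and Hoxd genes ran with detection of genes at large. The AhCre KO libraries detected 44.44% and 44.44% of the 18 genes, with counts in 61.62% and 61.06% of all genes, and the AhCre WT libraries 77.78% and 83.33%, with 70.17% and 66.67%. Villin KO detected 11.11% and 11.11%, with 41.51% and 39.86% of all genes, and Villin WT 22.22%, 38.89% and 0%, with 43.03%, 53.76% and 42.33%. In both lines the library with most genes detected was not a KO library. The part of this breadth in the Hoxc and Hoxd values was not tested.

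**Figure D4:**
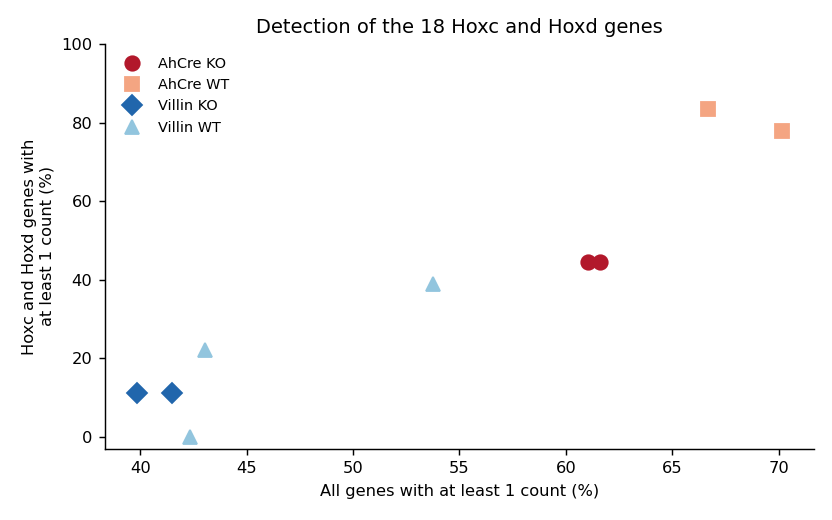
Share of the 18 Hoxc and Hoxd genes with at least 1 count (y axis, %) against the share of all genes with at least 1 count (x axis, %), a point per library. The AhCre WT libraries sit at 77.78% and 83.33% on the y axis and the Villin libraries at 0% to 38.89%.

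Of 8 listed markers of the distal small intestine, Fabp6 and Slc10a2 ran partly in the library order of the Hoxb block, and the other 6 showed no common direction. Both were picked after their values were seen. Fabp6, a bile acid binding protein of the ileum, was 1062 and 1324 CPM in AhCre KO, against 977 and 953.5 CPM in AhCre WT, and 46.1 and 952 CPM in Villin KO, against 2964, 493 and 2367 CPM in Villin WT. In Villin its order from high to low was WT 1, WT 3, KO 2, WT 2, KO 1, the order of both Hoxb7 and Hoxb9. Slc10a2, the ileal bile acid transporter, was 25.3 and 28.2 CPM in AhCre KO, against 10.9 and 9.02 CPM in AhCre WT, and 15.0 and 50.6 CPM in Villin KO, against 49.8, 4.62 and 99.8 CPM in Villin WT. In AhCre both markers were higher in both KO libraries, as Hoxb7 and Hoxb9 were, and in Villin WT 2 was the lowest for Slc10a2 and low for Fabp6.

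Neither marker passed the test between KO and WT: Fabp6 differed by 0.31 (adjusted p = 1) in AhCre and -1.96 (adjusted p = 0.212) in Villin on the log2 scale, and Slc10a2 by 1.42 (adjusted p = 1) and -0.64 (adjusted p = 0.658, edgeR). The other 6 distal genes had log2 fold changes of -0.54 (Ceacam20) to 0.44 (Bcl2l15) in AhCre, with 4 below 0, and of -0.30 (Cubn) to 0.84 (Mep1b) in Villin, with 4 above 0, and the median of all 8 was -0.06 in AhCre and -0.04 in Villin. Of the 8 distal genes, all were tested and 0 were called in either line, with 0 at an unadjusted p under 0.05, and their summed level was 2099 to 2425 CPM in AhCre KO, 2153 to 2256 CPM in AhCre WT, 5309 to 5407 CPM in Villin KO and 2996 to 7407 CPM in Villin WT. The 9 proximal genes summed to 1225 to 1322 CPM in AhCre KO, against 2137 to 2283 CPM in AhCre WT, with 0 called and 5 lower at an unadjusted p under 0.05, and to 7442 to 8203 CPM in Villin KO, against 3576 to 6408 CPM in Villin WT. In AhCre KO the Hoxb block was higher and the proximal sum lower than in AhCre WT. In Villin KO the block was below Villin WT 1 and WT 3, and the proximal sum was above all Villin WT libraries. Among Villin WT 1, WT 3 and WT 2 both sums fell in the same order, the proximal one at 6408, 5474 and 3576 CPM. The TMM factors were 0.684 and 0.779 in Villin KO, against 0.854, 1.12 and 0.806 in Villin WT. The proximal sum was not set against scaling by total counts. Fabp1 was the largest part of the Villin proximal sum, at 4486 and 3712 CPM in KO, against 3339, 1507 and 2958 CPM in WT. The median log2 fold change of the 9 proximal genes was -0.98 in AhCre and 0.07 in Villin. In Villin 1 of the 9 was higher and 1 lower at an unadjusted p under 0.05 (edgeR), against 26.1% of all genes, with 3.53% of all in AhCre. Of the proximal genes Slc40a1, the iron exporter, was called lower in Villin KO (-2.16 ± 0.53 SE; adjusted p = 0.0367, edgeR), at 27.9 and 12.5 CPM in KO, against 50.5, 56.4 and 162.8 CPM in WT. That call was lost in a fit of the Villin libraries alone (adjusted p = 0.0983, edgeR) and without any single library other than Villin WT 2 or WT 3 (adjusted p = 0.0535 to 0.102, edgeR), and the value was -1.41 without Villin WT 3. In AhCre Slc40a1 was also lower in both KO libraries, at 13.7 and 13.1 CPM, against 36.3 and 38.7 CPM in AhCre WT. Its log2 fold change there was -1.48 ± 0.54 (SE, unadjusted p = 0.0181, edgeR). For the mean KO effect of both drivers Slc40a1 was called lower (-1.82 ± 0.38 SE, adjusted p = 0.0409, edgeR), with 1.17% of all genes. The part of the sampled stretch of intestine in the Hoxb values was not tested.

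**Figure D5:**
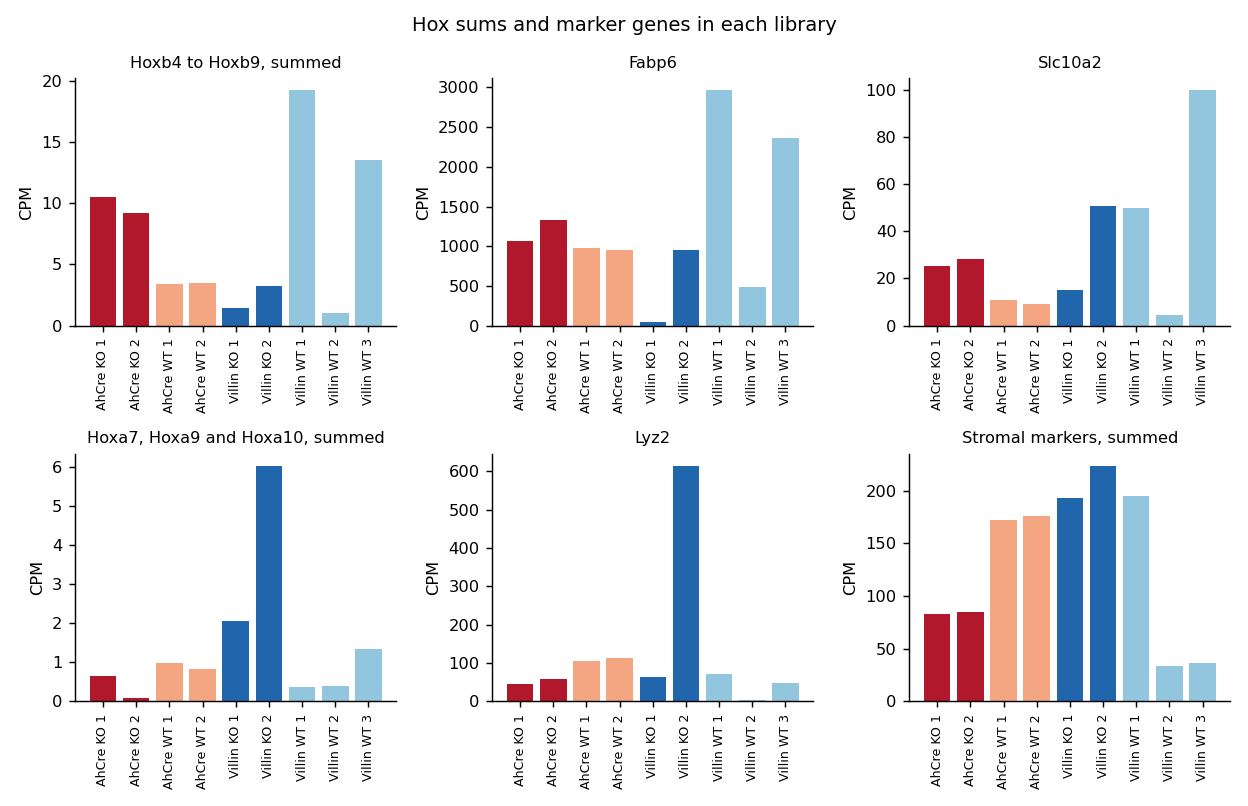
Level (CPM, y axis) in each library (x axis) of the Hoxb4 to Hoxb9 sum, of the ileal genes Fabp6 and Slc10a2, of the Hoxa7, Hoxa9 and Hoxa10 sum, of the macrophage gene Lyz2 and of the summed stromal markers. The Hoxb4 to Hoxb9 sum and Fabp6 are highest in Villin WT 1 and WT 3, and the Hoxa sum and Lyz2 are highest in Villin KO 2, at 6.02 and 614.5 CPM.

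Hox genes are also transcribed in gut mesenchyme, muscle, neurons and blood cells, and in bulk RNA fewer cells of a type and less RNA per cell cannot be told apart. The 15 stromal markers summed to 83.3 to 84.7 CPM in AhCre KO, against 172 to 176 CPM in AhCre WT, and to 193 to 223 CPM in Villin KO, against 33.4 to 195 CPM in Villin WT. Of these 12 were tested. Col1a1 (3.39 ± 0.54 SE; adjusted p = 0.00842) and Col3a1 (2.78 ± 0.55 SE; adjusted p = 0.0180, edgeR), fibrillar collagens of mesenchyme, were called higher in Villin KO, and 0 were called in AhCre. Col3a1 lost its call without Villin KO 1 (adjusted p = 0.0636, edgeR). Thus the stromal sum was lower in AhCre KO, where the Hoxb block was higher. In Villin WT 1 both were high, and in Villin KO the stromal sum was high and the Hoxb block low. The sum in Villin WT 1 was mostly the marker Dcn, at 133 CPM, against 92.8 and 82.8 CPM in Villin KO. Its Col1a1 was 3.06 CPM, against 14.1 and 16.0 CPM in Villin KO, and its Col3a1 was 11.3 CPM, against 32.2 and 40.9 CPM.

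The 11 leukocyte markers summed to 245 to 253 CPM in AhCre KO, against 238 to 242 CPM in AhCre WT, and to 391.5 to 1056 CPM in Villin KO, against 48.8 to 486 CPM in Villin WT. Kit, a receptor of mast cells and of some epithelial and pacemaker cells, was called higher in Villin KO (2.20 ± 0.50 SE; adjusted p = 0.0293, edgeR), at 73.1 and 20.1 CPM in KO, against 4.85, 12.4 and 12.9 CPM in WT, and 0 were called in AhCre. Without Villin KO 1 it was 1.01 (adjusted p = 0.242, edgeR), and the call was also lost with limma-voom (adjusted p = 0.0599) and without AhCre WT 2, AhCre KO 1, AhCre KO 2 or Villin WT 1. In AhCre Kit was also higher in both KO libraries, at 89.5 and 78.0 CPM, against 30.3 and 30.7 CPM in AhCre WT. Its log2 fold change there was 1.46 ± 0.54 (SE, unadjusted p = 0.0196, edgeR). For the mean KO effect of both drivers Kit was called higher (1.83 ± 0.37 SE, adjusted p = 0.0366, edgeR), with 1.17% of all genes. Villin KO 2, the library highest in Hoxa7, Hoxa9 and Hoxa10, had 614.5 CPM of Lyz2, a lysozyme of macrophages, and Villin KO 1 had 64.3 CPM, against 71.9, 2.44 and 48.2 CPM in Villin WT. Lyz2 was the largest part of the leukocyte sum in Villin KO 2. The other leukocyte markers ran both ways: Ptprc was 117 CPM in Villin KO 1 and 59.1 CPM in Villin KO 2, while Cd8a was 11.3 and 80.2 CPM. The 7 enteric neuron and glia markers summed to 3.56 to 3.73 CPM in AhCre KO, against 2.58 to 2.83 CPM in AhCre WT, and to 0.615 to 0.771 CPM in Villin KO, against 0.963 to 2.69 CPM in Villin WT. Of the 7, 0 were tested, and the sum in Villin KO 1 stood at the floor of 3 counts. Sox10 had 0 counts in both Villin KO libraries, against 2, 1 and 0 in Villin WT, all under that floor. The part of these cell types in the Hox values was not tested. Among the 9 epithelial genes Krt18, a keratin, was called higher in Villin KO (1.76 ± 0.44 SE; adjusted p = 0.0405, edgeR). Without Villin KO 1 it was 0.64 (adjusted p = 0.395, edgeR), and the call was lost without any single library other than Villin KO 2, with limma-voom (adjusted p = 0.0637) and in a fit of the Villin libraries alone (adjusted p = 0.0866, edgeR).

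Among genes known to act on or with the Hox clusters 0 were called in either line, against 0.00615% of all genes in AhCre and 6.21% in Villin. Lists of 3 to 12 tested genes are short for such shares, so this is no result about these genes. Of the TALE cofactors, the PBX, MEIS and PKNOX partners with which HOX proteins bind DNA, 0 of 8 tested were called in either line. The counts called were 0 of 3 for the ParaHox genes, 0 of 11 for Polycomb repressive complex 2, 0 of 12 for canonical Polycomb repressive complex 1, 0 of 10 for Trithorax proteins and H3K27 demethylases, and 0 of 9 for the retinoic acid pathway. At an unadjusted p under 0.05 these lists held 1 member in AhCre, and in Villin 1 TALE, 0 ParaHox, 1 complex 2, 3 complex 1, 5 Trithorax and 3 retinoic acid members, with 3.53% and 26.1% of all genes in AhCre and Villin. Cdx2, the ParaHox factor that sets intestinal identity, was 365 and 243 CPM in AhCre KO, against 251 and 254 CPM in AhCre WT, and 152 and 216 CPM in Villin KO, against 175, 277 and 179 CPM in Villin WT. The groups overlapped in both lines, and its log2 fold changes were 0.26 ± 0.36 in AhCre and -0.19 ± 0.33 in Villin (SE, edgeR). Pdx1, a ParaHox factor of the duodenum, was 4.45 and 4.34 CPM in AhCre KO, against 11.8 and 11.9 CPM in AhCre WT (-1.43 ± 0.63 SE; adjusted p = 1, edgeR), and 23.2 and 4.94 CPM in Villin KO, against 9.89, 8.72 and 21.8 CPM in Villin WT (0.06 ± 0.57 SE; adjusted p = 0.961, edgeR). Of the Hox antisense and host transcripts 2 were tested, with 0 called in either line.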

How the data were processed

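For each of the 9 Smart-seq2 libraries the authors deposited counts of reads by gene, whole numbers without normalization. The submitters' processing notes name STAR 2.7, featureCounts, DESeq2 1.20 and the build mm10 or GRCm38. What each tool did, which annotation was counted and whether strand was used is not given in the sources used here. Every row name (100.0%) matched GENCODE M21 (GRCm38), the source of coordinates, exon lengths and overlaps.

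Groups followed the titles, although the description of the Villin samples also mentions BNF. With edgeR 4.0.16 in R 4.3.3, filterByExpr on the 4 groups kept 16250 genes, TMM scaled the libraries, and all 9 libraries entered a single quasi-likelihood fit of group means (residual degrees of freedom 5, prior 7.43, common biological coefficient of variation 0.332). Calls have a Benjamini-Hochberg adjusted p under 0.05 over all genes tested. CPM are counts over the kept library size times the TMM factor. The scripts were tested on simulated counts with known changes. Sums over a cluster were not tested.

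The main fit was set against scaling by DESeq2 size factors or by total counts, no low-count filter, at least 1 CPM in 2 libraries, DESeq2 1.42.0 (Wald test), limma-voom (limma 3.58.1), fits of single lines, a replicate block and each library left out. A crossed block in AhCre, and a fit without the pair Villin WT 2 and Villin KO 1, were chosen after seeing the data. The Hox genes tested are given in full and the others by counts and ranges; 1 member enters the totals and is not reported singly here. Of the context lists, called members and at most 3 abundant members are named, while Fabp6, Slc10a2, Lyz2, Hoxaas3 and Sox10 were named after their values were seen. The members and lists were chosen with earlier results of these data known. Whether replicate numbers pair the libraries could not be settled, and the main fit did not pair them.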

Additional observations from a re-analysis of the deposited data

Results flagged for a closer look

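Hoxa9 and Hoxb5 were noted because their KO and WT libraries separated in opposite directions in the AhCre and Villin lines. The Hoxa9 level differed between KO and WT by -0.259 CPM in AhCre (0.121 CPM in KO, 0.380 CPM in WT) and by 1.43 CPM in Villin (1.59 CPM in KO, 0.167 CPM in WT). The Hoxb5 level differed by 0.405 CPM in AhCre (0.711 CPM in KO, 0.306 CPM in WT) and by -0.668 CPM in Villin (0 CPM in KO, 0.668 CPM in WT). Both genes were too low for the main test of the difference; with no filter on low counts its adjusted p was 0.105 for Hoxa9 and 0.123 for Hoxb5 (edgeR), so neither was called. Of the 30607 genes with counts that were likewise not tested, 444 (1.45%) separated in this way.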

How the results depend on the processing

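Every contrast had 0 Hox genes called in the main fit of all 9 libraries. The count became 1 in AhCre in a fit of that line alone (Hoxb9), 2 in Villin (Hoxb7 lower, Hoxa9 higher) and 2 for the difference (Hoxb7, Hoxb9) with no low-count filter, and, for AhCre WT against Villin WT, 1 (Hoxb7) with no filter, with DESeq2, and without both Villin WT 2 and Villin KO 1. With each library left out in turn it was 0 to 1 in Villin and 0 to 1 for the WT contrast, in both cases Hoxb7 without Villin WT 2, and 0 in AhCre, for the mean and for the difference. Why these calls moved was not tested, beyond the smaller set of libraries or wider set of genes by which each alternative is built. Scaled by total counts, the KO minus WT difference was 7.87 CPM for Hoxb in AhCre, against 6.50 CPM in the main scaling, and 2.46 CPM for Hoxa in Villin, against 4.20 CPM; both kept their direction.

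On the log2 scale some uncalled values took the other sign: with limma-voom Hoxb6 was 0.41 in Villin and 0.29 between the WT groups, and without both Villin WT 2 and Villin KO 1 Hoxa3 was 0.85 between the WT groups. With each library left out, Hoxb6 ranged from -0.022 to 1.63 in AhCre, Hoxa3 from -2.13 to 0.86 in Villin, from -0.25 to 2.74 for the difference and from -0.65 to 0.85 between the WT groups, and Hoxb9 from -1.85 to 0.084 between the WT groups. Hoxb7 and Hoxb9 kept their signs in AhCre (1.03 to 1.89 and 1.43 to 2.82), in Villin (-3.66 to -1.72 and -3.44 to -0.69) and for the difference (3.11 to 5.06 and 2.66 to 5.42).

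Deviations of same-numbered libraries from their group means correlated at -0.107 in AhCre and at 0.061 and -0.216 in Villin. In a group of 2 libraries these deviations mirror each other, so the values cannot show whether replicate numbers pair the libraries. With the replicate block 0 Hox genes were called in AhCre, in Villin, for the mean and for the difference, while the calls over all genes were 1, 300, 137 and 0. With the numbers crossed in AhCre they were 1, 46, 48 and 0, with 0 Hox genes. In Villin, Pcgf6, Col3a1, Kit, Krt18 and Slc40a1 were not called under the block (adjusted p = 0.056 to 0.108, edgeR), nor was Col1a1 when crossed (adjusted p = 0.0619, edgeR). With 34 of 39 members too low to test, and 2 or 3 libraries a group, changes in most Hox genes were not detectable at this depth.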
